A study of Mus musculus with 20 samples.

Results

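The comparison set NIP against NIL motor neuron cultures after 36 h of cyclopiazonic acid (CPA), 2 libraries of each line, which are 4 of the 20 libraries of the series. The members were taken by sample label: line NIP or NIL, time 36 h, CPA added. The question it answers is which line held the higher level of stress-response RNA, and which held more neuronal RNA, after the same exposure. Both lines are mouse embryonic stem cells differentiated into motor neurons, cranial in type for NIP and spinal in type for NIL per the labels. Treated cultures received 20 µM CPA from day 2, and untreated cultures of each line at 36 h, with no agent named in their labels, stand beside them below. In this field NIP cells carry Neurog2, Isl1 and Phox2a as introduced genes and NIL cells carry Neurog2, Isl1 and Lhx3, so reads at these symbols can come from the introduced or the native gene and the counts cannot tell them apart. The late time is 36 h in the sample titles but 12 h in the protocol and design texts; the titles were followed. Replicate numbers come from the titles, and no label says whether the replicates were separate cultures, so p-values measure the spread between these samples, which may be technical.

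CPA blocks SERCA, the pump that fills the endoplasmic reticulum (ER) with calcium, and ER chaperones need that calcium to fold proteins. Unfolded protein then activates the sensors IRE1, ATF6 and PERK. ATF6 and XBP1 switch on chaperones and degradation factors through promoter elements such as ERSE, while PERK slows translation and raises ATF4, which switches on amino acid transporters, amino acid synthesis, tRNA charging and, with CHOP (gene Ddit3), genes of cell death. Motor neurons of the spinal cord and most of the brainstem degenerate in amyotrophic lateral sclerosis, the disease named in the title of the series, whereas those that move the eyes are known to be spared for longer.

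Gene reads were 23516699 and 14479408 in the treated NIP libraries and 13566802 and 10531171 in the treated NIL libraries, replicate 1 before replicate 2 here and throughout. Over all 20 libraries they ranged from 7996454 to 30321152. Rn45s, the ribosomal RNA precursor gene, took 11.7% and 14.0% of gene reads in treated NIP and 8.67% and 38.3% in treated NIL, so NIL replicate 2 stood apart. Untreated NIP replicate 1 also had a high share, 38.6%. Reads that mapped to more than 1 place were 27.6% and 43.6% in treated NIP and 25.6% and 52.6% in treated NIL. Levels below are CPM, gene counts scaled to a common library size after TMM normalisation, not divided by gene length, so they compare libraries and not genes. In bulk RNA, fewer cells of a type and less RNA per cell cannot be told apart.

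Phox2a, Lhx3 and Mnx1 differed in the direction of the labels, while the wider identity lists held calls both ways. Phox2a and Lhx3 are among the introduced genes given above, so their direction cannot test the labels. Of 14 cranial identity genes 7 were called higher and 2 lower in NIP. Of 11 spinal identity genes 1 was called higher and 7 lower, beside 19.3% higher and 18.2% lower over all tested genes. Phox2a, a cranial motor neuron factor, had 127 and 174 CPM in treated NIP and 0.507 and 2.57 CPM in treated NIL (log2 difference NIP over NIL 6.89 ± 0.70 SE, edgeR adjusted p = 2.19e-05). No library of one line overlapped the other. Lhx3, a spinal motor neuron factor, had 2 reads over both treated NIP libraries and 3492 over both treated NIL libraries, a level 2850-fold higher in NIL with an exact 95% counting interval of 789 to 23600. Mnx1, which marks spinal motor neurons, had 0.339 and 0.673 CPM in treated NIP and 41.9 and 35.8 CPM in treated NIL (-6.34 ± 0.29, edgeR adjusted p = 3.26e-10). Lhx4 and Isl2, further spinal factors, were lower in NIP by 5.61 and 4.08 on the log2 scale. Tlx2 had 1470 reads in treated NIP and 2 in treated NIL, a level 450-fold higher in NIP (124 to 3720). These calls, and those of Tlx3 and Rgs4 in NIP, held in each of 13 alternative fits, without the replicate block among them.

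Genes that both types use differed in both directions, with 7 of 17 called higher and 6 lower in NIP (median 0.48). Over all tested genes 19.3% were called higher and 18.2% lower. Isl1, a factor of all motor neurons, had 186 and 151 CPM in treated NIP and 162 and 87.6 CPM in treated NIL. Its difference of 0.48 ± 0.17 passed (edgeR adjusted p = 0.0345) although the libraries overlapped, and it passed in 1 of 13 alternative fits, with an adjusted p of up to 0.402 without 1 library. Slc18a3, the vesicular acetylcholine transporter, had 145 and 139 CPM in treated NIP and 127 and 59.2 CPM in treated NIL (0.67 ± 0.24, edgeR adjusted p = 0.0334), and passed in 5 of 13, with 0.419 as the highest adjusted p without 1 library, not passing without NIL replicate 2 or NIP replicate 2. Chat, the enzyme that makes acetylcholine, had 6.64 and 7.41 CPM in treated NIP and 14.1 and 6.03 CPM in treated NIL, which overlap. Slc5a7, the choline transporter, had 71.3 and 18.6 CPM in treated NIP and 41.7 and 13.9 CPM in treated NIL, which overlap too. Ret, the receptor of the growth factor GDNF, named after its values were seen, was higher in NIP at 628 and 520 CPM, against 275 and 150 CPM in NIL (1.46 ± 0.22, edgeR adjusted p = 6.38e-05). Dcc, a netrin receptor for axon guidance, was lower in NIP at 14.7 and 11.8 CPM, against 380 and 150 CPM in NIL (-4.22 ± 0.27, edgeR adjusted p = 1.82e-08). Slit3, a guidance ligand, was lower by 2.69.

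RNA of cells other than neurons stood lower in treated NIP, and it also differed between the 2 libraries of each line. The 17 genes of the endoderm and endothelium list summed to 531 and 9514 CPM in treated NIP and 18312 and 37220 CPM in treated NIL. All 17 were called lower in NIP, against 18.2% of all tested genes, which is the background for each list of this paragraph. Col4a1, a basement membrane collagen, had 106 and 2527 CPM in treated NIP and 5049 and 10936 CPM in treated NIL, and Sox17, an endoderm factor, had 1.73 and 24.2 CPM in NIP and 54.5 and 100.4 CPM in NIL. Proliferation genes (26 of 26 lower) summed to 118 and 386 CPM in treated NIP and 874 and 1426 CPM in treated NIL. Pluripotent stem cell genes (14 of 17 lower) summed to 101 and 227 CPM in NIP and 298 and 910 CPM in NIL, with Pou5f1 at 0.169 and 1.68 CPM in NIP and 4.63 and 63.8 CPM in NIL. Mesenchyme genes (8 of 12 lower) summed to 19.4 and 112 CPM in NIP and 264 and 419 CPM in NIL. Glial genes (4 of 7 lower) summed to 35.7 and 127 CPM in NIP and 258 and 343 CPM in NIL, with Gfap at 0 in both lines. Immune genes (1 of 2 tested lower) summed to 1.14 and 3.77 CPM in NIP and 6.03 and 9.37 CPM in NIL, with Ptprc, the common leukocyte marker, at 0 in both. Of 10 listed immune genes 6 had reads in treated NIP and 5 in treated NIL, so this list shows little. Without the replicate block 7 proliferation, 1 pluripotent, 0 endoderm and 5 mesenchyme genes were called, all lower. The share of these cells in the differences described below was not tested.

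Of 14792 tested genes, 5554 (37.5%) differed between treated NIP and treated NIL, with 2861 (19.3%) higher in NIP and 2693 (18.2%) lower. The median log2 difference over all tested genes was 0.03. In 52.9% of tested genes the treated libraries of the lines did not overlap, with both NIP libraries above in 27.2% and below in 25.7%. Without the replicate block 2507 genes were called, 1536 higher and 971 lower, and all of them were among the 5554. The largest differences outside the identity lists included Chrna3 and Chrnb4, subunits of a nicotinic acetylcholine receptor of autonomic neurons. Chrna3 had 612 and 180 CPM in treated NIP and 5.01 and 4.88 CPM in treated NIL (6.26 ± 0.51, edgeR adjusted p = 2.04e-06). Chrnb4 had 160 and 97.6 CPM in NIP and 3.87 and 4.49 CPM in NIL (4.96 ± 0.37). Avpr1a, a vasopressin receptor, was higher in NIP by 7.81, and Megf11, a cell surface protein with EGF repeats, was lower by 6.48. Otp, a homeobox factor of hypothalamic neurons, had 2 reads in treated NIP and 237 in treated NIL, a level 194-fold higher in NIL (53.0 to 1610).

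**Figure D1:**
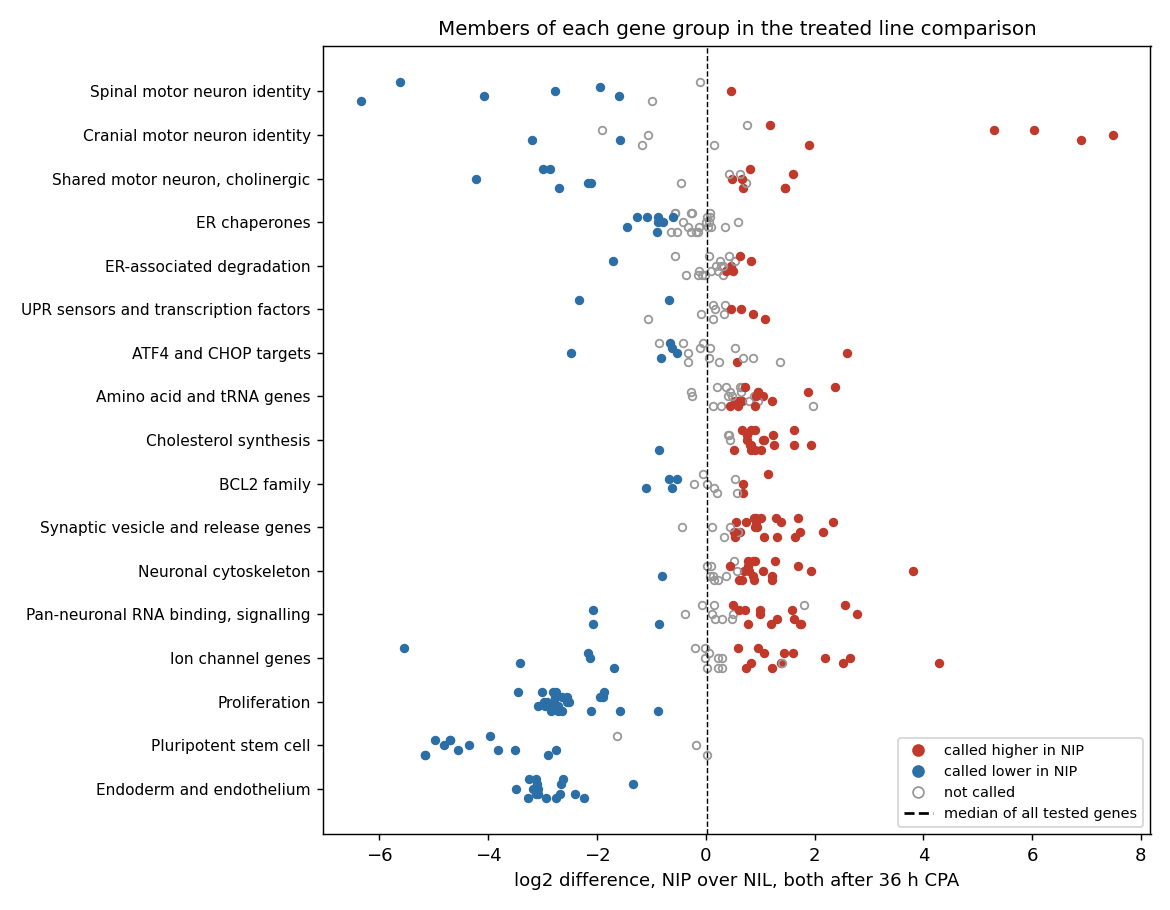
Log2 difference (NIP over NIL, both after 36 h CPA; horizontal axis) for each tested member of 17 gene groups, red where called higher in NIP, blue where called lower, open where not called, with vertical offsets for legibility only; members with 3 or fewer reads in a line are left out. Amino acid, cholesterol, synaptic and cytoskeleton members lie mostly right of the dashed median of all genes (0.03), ER chaperones mostly left of it, and proliferation and endoderm members far left.

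Part of the chaperones and folding enzymes of the ER lumen were lower in treated NIP than in treated NIL. Of 29 tested, 0 were called higher and 8 lower in NIP, with 21 not called, against a background of 18.2% lower. The median of the list was -0.28; it was -0.58 without NIP replicate 1 and -0.09 with a block for each line, and 5 to 11 genes were called lower without 1 library. Their summed level was 9370 and 8583 CPM in treated NIP and 12943 and 13433 CPM in treated NIL, which do not overlap. In untreated cultures at 36 h the sums were 3289 and 3565 CPM in NIP and 3795 and 5120 CPM in NIL. There 0 members were higher and 6 lower, beside 14.1% and 14.7% over all genes, with the same median of -0.28. So the order of the lines was the same without CPA, and no chaperone passed the test of a line difference in the CPA response. The 8 that passed were Pdia5, Creld2, P4hb, Pdia4, Txndc5, Hsp90b1, Pdia6 and Ppib; Pdia4, Pdia6 and Ppib are named here to complete the count, after their values were seen. Of the 8, Pdia4 alone was called when the replicate block was left out.

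P4hb and the other protein disulfide isomerases form and rearrange the disulfide bonds of secreted proteins. P4hb had 566 and 807 CPM in treated NIP and 1239 and 1650 CPM in treated NIL (-1.08 ± 0.23, edgeR adjusted p = 0.00165). Pdia5 had 28.99 and 48.9 CPM in NIP and 90.0 and 117 CPM in NIL (-1.46 ± 0.27, edgeR adjusted p = 0.000703). Both were lower in NIP in each replicate pair. Pdia4 had 246 and 252 CPM in treated NIP and 463 and 471 CPM in treated NIL (-0.91 ± 0.22, edgeR adjusted p = 0.00402), while untreated NIP had 77.8 and 84.3 CPM and untreated NIL 88.3 and 112 CPM. Creld2, a secreted stress-response protein, had 36.6 and 60.0 CPM in treated NIP and 98.7 and 127 CPM in treated NIL (-1.26 ± 0.26, edgeR adjusted p = 0.00135). Each of these genes had its 2 NIP libraries below its 2 NIL libraries. P4hb, Pdia5 and Creld2 moved in the direction of the endoderm sums given above (531 and 9514 CPM in NIP, 18312 and 37220 CPM in NIL), whose part in them was not tested.

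Of the chief ER chaperones, Hsp90b1 passed and Hspa5 did not, both with lower levels in treated NIP. Hspa5 (BiP), which binds unfolded protein and holds the sensors inactive, had 1360 and 1251 CPM in treated NIP and 1843 and 2067 CPM in treated NIL. Its difference of -0.58 ± 0.24 did not pass (edgeR adjusted p = 0.0651), though the libraries did not overlap and 2 of 13 alternative fits, both with DESeq2 scaling, called it. Hsp90b1 (GRP94), the ER form of HSP90, had 1276 and 964 CPM in treated NIP and 2194 and 1916 CPM in treated NIL (-0.87 ± 0.29, edgeR adjusted p = 0.0261), and passed in 7 of 13 alternative fits, with an adjusted p of up to 0.165 without 1 library (NIL replicate 1 or NIP replicate 2). Untreated cultures had 305 and 332 CPM of Hspa5 in NIP and 374 and 487 CPM in NIL, so both lines stood well above their untreated level after CPA. Calr, the calcium-binding chaperone calreticulin, named after its values were seen, had 1275 and 1460 CPM in treated NIP and 1948 and 1993 CPM in treated NIL (-0.53 ± 0.26, edgeR adjusted p = 0.118). Hyou1, a nucleotide exchange factor for BiP, had 554 and 682 CPM in NIP and 722 and 758 CPM in NIL (-0.26 ± 0.22), and Sdf2l1, a BiP partner, 63.3 and 52.4 CPM in NIP and 72.7 and 67.5 CPM in NIL (-0.28 ± 0.28). Neither passed. Dnajb9 (ERdj4), a BiP co-chaperone induced through XBP1, had 58.2 and 25.9 CPM in treated NIP and 48.2 and 39.9 CPM in treated NIL, which overlap.

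Promoter windows of RefSeq (build GRCm38.p6, 250 bases before to 50 after each start, read on the gene's strand) were searched for ERSE, the element bound by ATF6 and NF-Y, searched on both strands as CCAAT and CCACG with 9 bases of any kind between them. Of 26 chaperone genes with a window 8 held it (30.8%), against 37 of all 27025 genes with a window (0.137%). These were 3 of the 8 lower in NIP (Hsp90b1, Pdia6 and Creld2) and 5 of the 18 not called (Hspa5, Calr, Canx, Dnajc3 and Ero1lb). Of the tested genes 11615 (78.5%) matched a window, 585 of them by a synonym. The windows of both chief chaperones are shown since they carry the element in a called and an uncalled gene; capitals mark the match, on the shown strand for Hspa5 and once on each strand for Hsp90b1.
Hspa5, chr2:34771840-34772139, plus strand: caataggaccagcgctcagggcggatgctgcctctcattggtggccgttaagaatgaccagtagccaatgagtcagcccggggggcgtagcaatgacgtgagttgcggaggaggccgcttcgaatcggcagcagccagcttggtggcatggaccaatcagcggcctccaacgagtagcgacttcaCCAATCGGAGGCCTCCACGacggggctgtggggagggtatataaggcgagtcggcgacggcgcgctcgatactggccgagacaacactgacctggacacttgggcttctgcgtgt
Hsp90b1, chr10:86705395-86705694, minus strand: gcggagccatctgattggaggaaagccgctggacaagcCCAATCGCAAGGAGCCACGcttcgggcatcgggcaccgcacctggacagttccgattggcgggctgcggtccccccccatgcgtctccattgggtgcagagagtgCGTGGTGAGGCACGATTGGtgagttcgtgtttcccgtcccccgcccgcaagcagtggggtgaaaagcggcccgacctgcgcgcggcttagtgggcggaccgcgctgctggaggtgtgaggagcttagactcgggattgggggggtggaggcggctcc
A match is a description of the letters and not a site of binding. Members with and without a match were found on both sides of the call.

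ER-associated degradation, which returns misfolded protein to the cytosol for the proteasome, differed in few genes. Of 22 tested genes 5 were called higher and 1 lower in NIP, beside 19.3% higher and 18.2% lower over all genes. The median of 0.24 was -0.03 within replicate 2 and 0.06 without NIP replicate 1. Ube2j1, a ubiquitin-conjugating enzyme of the ER membrane, had 139 and 78.9 CPM in treated NIP and 75.9 and 45.2 CPM in treated NIL (0.84 ± 0.16, edgeR adjusted p = 0.000632). Ufd1l, a cofactor of the extracting ATPase p97, had 86.1 and 65.1 CPM in NIP and 50.5 and 46.3 CPM in NIL (0.63 ± 0.14, edgeR adjusted p = 0.00197). Both were also higher in untreated NIP, by 0.64 and 0.84. Herpud1, which assembles the degradation complex, had 113 and 135 CPM in treated NIP and 104 and 174 CPM in treated NIL, which overlap. Sel1l, the scaffold of that complex, had 362 and 412 CPM in NIP and 346 and 396 CPM in NIL, which overlap too. Derl3, the derlin of secretory cells, was lower in NIP at 0.762 and 6.67 CPM, against 7.55 and 11.4 CPM in NIL (-1.71 ± 0.56, edgeR adjusted p = 0.0289), and passed in 4 of 13 alternative fits, not without NIL replicate 1, NIP replicate 1 or NIL replicate 2 (highest adjusted p 0.175). No gene of this list was called in either direction without the replicate block.

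Genes of protein entry into the ER and of transport to the Golgi differed little. Of 29 entry and N-glycosylation genes 1 was called higher and 2 lower in NIP (median -0.05). Of 26 COPII and COPI coat and transport genes 0 were higher and 3 lower (median -0.08). The shares over all genes were 19.3% higher and 18.2% lower. Stt3a, a catalytic subunit of oligosaccharyltransferase, had 146 and 119 CPM in treated NIP and 197 and 238 CPM in treated NIL (-0.70 ± 0.19, edgeR adjusted p = 0.00852). Srpr, the receptor of the signal recognition particle, had 79.8 and 93.2 CPM in NIP and 104 and 144 CPM in NIL (-0.51 ± 0.13, edgeR adjusted p = 0.0066). Among coat genes Sec13 was lower by 0.53, and Mcfd2, a cargo receptor subunit, by 0.63. All 4 had both NIP libraries below both NIL libraries. So did 10 of the 29 entry genes and 6 of the 26 transport genes in all, against 25.7% of all tested genes. The call was lost without NIP replicate 2 for Stt3a (adjusted p = 0.0921), without NIL replicate 2 for Srpr (0.0654) and without NIL replicate 1 for Sec13 (0.0618), and without the replicate block for Srpr, Sec13 and Mcfd2. No coat or transport gene was called without the block, and the median of that list was 0.01 with library totals and 0.03 without NIP replicate 2.

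The sensors and transcription factors of the unfolded protein response held calls in both directions. Of 13 tested, 4 were called higher and 2 lower in NIP (median 0.18), beside 19.3% higher and 18.2% lower over all genes. Their summed level was 1806 and 1821 CPM in treated NIP and 1479 and 1736 CPM in treated NIL. Xbp1, the factor whose RNA IRE1 splices, had 230 and 247 CPM in treated NIP and 156 and 192 CPM in treated NIL (0.46 ± 0.14, edgeR adjusted p = 0.0156), and passed in 6 of 13 alternative fits, not without NIL replicate 1, NIP replicate 1 or NIL replicate 2 (highest adjusted p 0.191). Counts per gene do not separate its spliced form. Nfe2l1, an ER-anchored factor that raises proteasome genes, had 555 and 531 CPM in NIP and 305 and 293 CPM in NIL (0.86 ± 0.15, edgeR adjusted p = 0.000348), and passed in all 13. Its NIP libraries lay above its NIL libraries. Mbtps2, the protease that releases ATF6 and the SREBP factors inside the membrane, was higher in NIP at 82.3 and 48.0 CPM, against 35.1 and 25.3 CPM in NIL (1.09 ± 0.24, edgeR adjusted p = 0.00208). Mbtps1, which makes the preceding cut, was lower at 100.1 and 139 CPM in NIP, against 168 and 213 CPM in NIL (-0.68 ± 0.14, edgeR adjusted p = 0.00133). Both proteases act on the same substrates, and their RNA differed in opposite directions. Creb3l1, an ER-anchored factor of secretory and matrix-producing cells, had 12.8 and 34.6 CPM in treated NIP and 88.0 and 122 CPM in treated NIL (-2.33 ± 0.23, edgeR adjusted p = 9.13e-07), beside the collagen and endoderm levels above, whose part was not tested. Atf6 had 102 and 109 CPM in NIP and 74.5 and 94.7 CPM in NIL (0.33 ± 0.15, edgeR adjusted p = 0.108). A fit without the replicate block called 2 genes of this list, both higher in NIP, Nfe2l1 and, named after its values were seen, Atf6b, which lost its call without NIL replicate 2 (adjusted p = 0.114).

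The PERK branch gave no common direction at its core. Atf4 had 323 and 226 CPM in treated NIP and 255 and 245 CPM in treated NIL (0.14 ± 0.26, edgeR adjusted p = 0.721). Ddit3 (CHOP) had 83.2 and 133 CPM in NIP and 73.8 and 163 CPM in NIL (-0.09 ± 0.30, edgeR adjusted p = 0.837). Trib3, a pseudokinase induced by both, had 37.4 and 69.9 CPM in NIP and 34.6 and 110 CPM in NIL (-0.33 ± 0.43, edgeR adjusted p = 0.587). The libraries of the lines overlapped for all 3, and replicate 2 was above replicate 1 for Ddit3 and Trib3 in both lines. Untreated NIP had 10.2 and 10.9 CPM of Ddit3 and untreated NIL 9.26 and 13.1 CPM, so all 4 treated libraries held several times the untreated level. Atf3, a further stress factor, had 33.0 and 49.2 CPM in treated NIP and 25.4 and 45.2 CPM in treated NIL (0.24 ± 0.24), and Ppp1r15a (GADD34), which restores translation, had 141 and 206 CPM in NIP and 84.5 and 158 CPM in NIL (0.54 ± 0.22, edgeR adjusted p = 0.063). Chac1, a glutathione-degrading enzyme, had 75.6 and 76.2 CPM in NIP and 32.7 and 55.2 CPM in NIL (0.87 ± 0.62, edgeR adjusted p = 0.305).

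**Figure D2:**
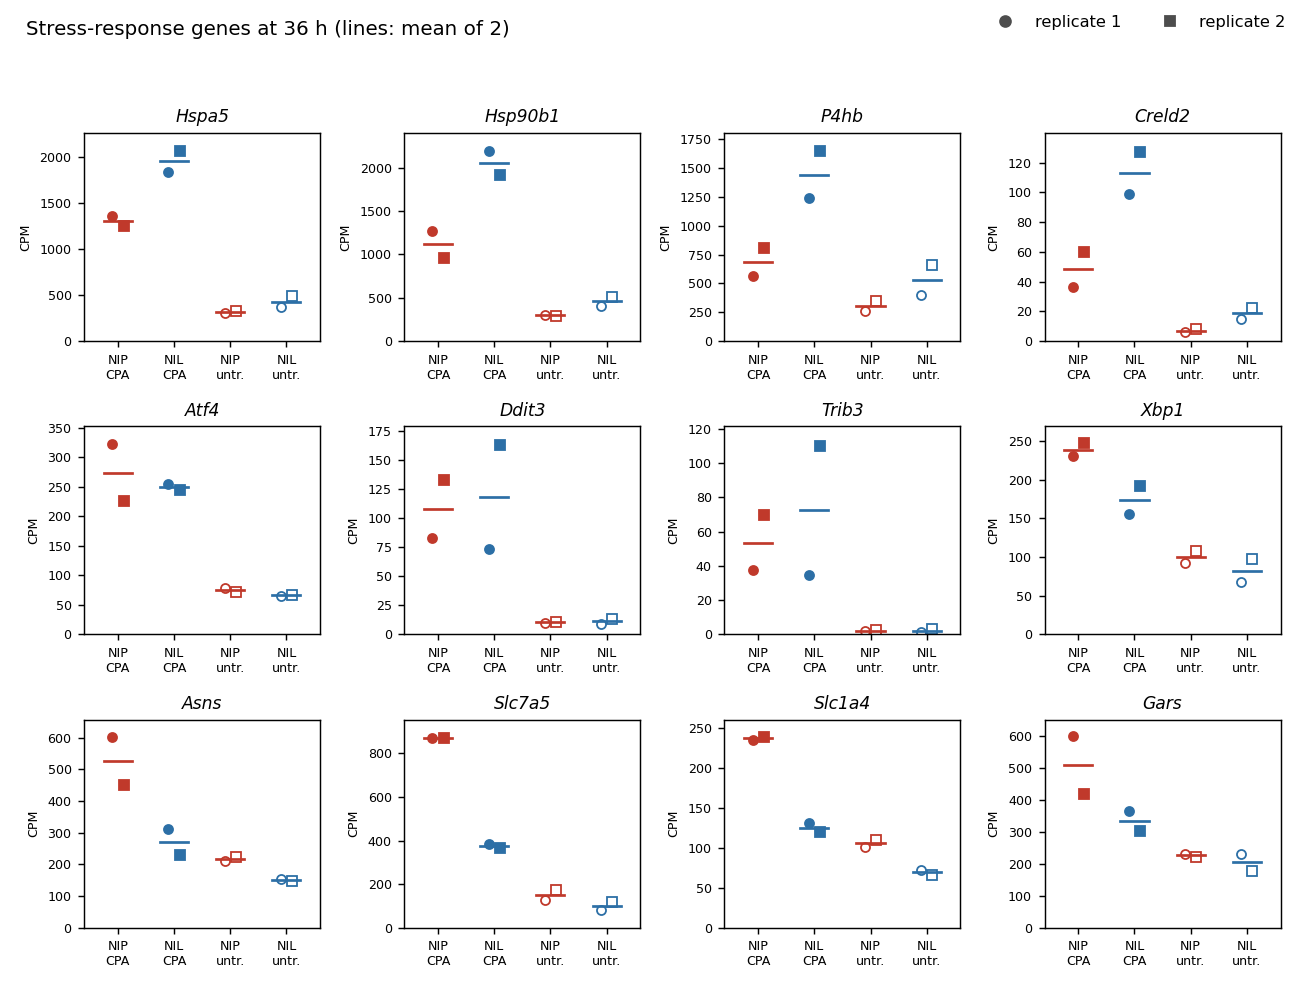
CPM (vertical axis, from 0) of 12 stress-response genes in each library at 36 h, NIP in red and NIL in blue, filled symbols after CPA and open symbols untreated, circles for replicate 1, squares for replicate 2 and lines for the mean of 2. Chaperones (Hspa5, Hsp90b1, P4hb, Creld2) lie lower in treated NIP, Atf4, Ddit3 and Trib3 overlap between the lines, and Asns, Slc7a5, Slc1a4 and Gars lie higher in treated NIP.

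Over the 20 tested ATF4 and CHOP targets, 2 were called higher and 5 lower in NIP (median -0.08), beside 19.3% and 18.2% over all genes. The summed level was 1358 and 1642 CPM in treated NIP and 1293 and 1779 CPM in treated NIL, which overlap. Sesn2, which restrains mTORC1, had 125 and 200 CPM in NIP and 217 and 292 CPM in NIL (-0.66 ± 0.18, edgeR adjusted p = 0.00798), a call lost without NIP replicate 1 (adjusted p = 0.0671). Tnfrsf10b, a death receptor, had 32.4 and 82.8 CPM in treated NIP and 71.6 and 119 CPM in treated NIL (-0.82 ± 0.19, edgeR adjusted p = 0.00251). The treated libraries of the lines overlap for Tnfrsf10b. Sesn2 and Tnfrsf10b were also lower in untreated NIP, by 1.30 and 1.47. Nupr1, a small stress-induced nuclear protein, had 1.06 and 9.43 CPM in treated NIP and 8.63 and 42.8 CPM in treated NIL (-2.47 ± 0.40, edgeR adjusted p = 0.000182), and its libraries overlap. Cth, the last enzyme on the route from methionine to cysteine, was higher in NIP at 51.3 and 35.0 CPM, against 6.66 and 8.47 CPM in NIL (2.60 ± 0.82, edgeR adjusted p = 0.0288), and passed in 6 of 13 alternative fits, not without NIL replicate 1, NIP replicate 1 or NIL replicate 2 (highest adjusted p 0.234). No member was called without the replicate block.

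Genes that supply and charge amino acids, a large class of ATF4 targets, were higher in treated NIP. Of 30 tested, 14 were called higher and 0 lower, against a background of 19.3% higher, and the median was 0.65 beside 0.03 for all genes. Their summed level was 8220 and 6989 CPM in treated NIP and 4883 and 4860 CPM in treated NIL. In 24 of the 30 both NIP libraries lay above both NIL libraries, against 27.2% of all tested genes. Untreated cultures had 2634 and 2750 CPM in NIP and 2350 and 2392 CPM in NIL. There 3 members were higher and 2 lower, beside 14.1% and 14.7% over all genes, with a median of 0.12. At the earlier untreated times NIP also lay above NIL, with 6137 and 5580 CPM in NIP and 2306 and 2392 CPM in NIL at 0 h, and 3320 and 5127 CPM in NIP and 2250 and 2408 CPM in NIL at 12 h. After 12 h of CPA the sums were 9649 and 8265 CPM in NIP and 7670 and 7032 CPM in NIL. In these sums the line gap after 36 h of CPA was larger than the untreated gap at 36 h, but smaller than that at 0 h. Gene by gene, none was called in the 36 h test of a line difference in the CPA response. A fit without the replicate block called 6 members, all higher in NIP, and in the fits that left out 1 treated library 5 to 12 were called higher and 0 or 1 lower; the median was 0.38 without NIP replicate 1.

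Slc7a5, the light chain of the large neutral amino acid exchanger, had 869 and 869 CPM in treated NIP and 382 and 367 CPM in treated NIL (1.21 ± 0.26, edgeR adjusted p = 0.00156). Untreated NIP had 126 and 171 CPM and untreated NIL 80.8 and 117 CPM. Its treated NIP libraries lay far above its treated NIL libraries, a difference that passed in all 13 alternative fits. Slc1a4, a transporter of serine and alanine, had 235 and 240 CPM in treated NIP and 131 and 120 CPM in treated NIL (0.92 ± 0.17, edgeR adjusted p = 0.000347), and passed in all 13. Slc38a7, a glutamine transporter, had 101 and 136 CPM in NIP and 54.8 and 72.7 CPM in NIL (0.90 ± 0.19, edgeR adjusted p = 0.00119), and passed in all 13 as well. Each of the 3 had its NIP libraries above its NIL libraries. Slc7a11, the cystine importer, had 16.2 and 3.57 CPM in treated NIP and 1.97 and 1.54 CPM in treated NIL (2.37 ± 0.65, edgeR adjusted p = 0.0113), with NIP replicate 1 the highest of the 4 libraries. It passed in 9 of 13 alternative fits, not without NIP replicate 1 or NIL replicate 1 (highest adjusted p 0.226), and the difference was at least 1.63 without any 1 library.

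Asns, which makes asparagine, had 603 and 452 CPM in treated NIP and 312 and 231 CPM in treated NIL (0.96 ± 0.23, edgeR adjusted p = 0.00381). It lost its call without NIP replicate 1, without NIL replicate 2 and without both libraries of high Rn45s share (adjusted p up to 0.104 without 1 library). Aldh18a1, the first enzyme of proline synthesis, had 130 and 138 CPM in NIP and 82.1 and 87.4 CPM in NIL (0.66 ± 0.15, edgeR adjusted p = 0.0019). Psat1, of serine synthesis, had 379 and 207 CPM in NIP and 189 and 131 CPM in NIL (0.88 ± 0.39, edgeR adjusted p = 0.0992), which do not overlap but did not pass. The tRNA-charging enzymes Gars (glycine) and Yars (tyrosine), named after their values were seen, were higher by 0.60 ± 0.19 and 0.72 ± 0.16. Gars had 599 and 419 CPM in treated NIP and 366 and 303 CPM in treated NIL, and Yars 248 and 228 CPM in NIP and 153 and 136 CPM in NIL. Gars lost its call without NIL replicate 1, NIP replicate 1 or NIL replicate 2 (highest adjusted p 0.341).

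The element that ATF4 binds with C/EBP partners (CARE) was searched as TGATGNAAN on both strands. Of 23 genes of the amino acid list with a window 9 held it (39.1%). The share was 4.5% of all genes with a window and 2.78% of tested genes with one. CARE was in 5 of the 10 such members higher in NIP (Asns, Gars, Slc1a4, Slc7a11 and Yars) and in 4 of the 13 not called (Aars, Iars, Pycr1 and Tars). Matches of CARE and ERSE overlapped in 0 windows. Both windows below are of members called higher in NIP, with the matches in capitals, once for Asns and once on each strand for Slc7a11.
Asns, chr6:7693160-7693459, minus strand: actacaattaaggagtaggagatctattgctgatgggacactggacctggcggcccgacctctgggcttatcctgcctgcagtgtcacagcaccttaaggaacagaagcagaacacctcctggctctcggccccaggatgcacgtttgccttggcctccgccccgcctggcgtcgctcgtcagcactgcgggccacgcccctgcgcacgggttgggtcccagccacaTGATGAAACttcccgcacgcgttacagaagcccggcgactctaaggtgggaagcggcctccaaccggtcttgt
Slc7a11, chr3:50443564-50443863, minus strand: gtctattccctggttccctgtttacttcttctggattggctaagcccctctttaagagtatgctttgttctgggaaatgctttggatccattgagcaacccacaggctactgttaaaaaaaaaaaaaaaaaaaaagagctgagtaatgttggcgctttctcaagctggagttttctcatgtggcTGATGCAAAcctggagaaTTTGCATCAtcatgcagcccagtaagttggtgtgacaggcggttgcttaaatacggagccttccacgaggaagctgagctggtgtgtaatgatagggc
In the ATF4 and CHOP target list 6 of 17 genes with a window (35.3%) held CARE, 1 of them called lower in NIP and 5 not called. The 1 called lower was Nupr1, whose libraries overlap and whose call was lost without the replicate block. The part of the element in the line differences was not tested.

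The BCL2 family sets the threshold for mitochondrial cell death. Of 14 tested members 3 were called higher and 4 lower in NIP, beside 19.3% higher and 18.2% lower over all genes. In untreated cultures 4 were higher and 2 lower, beside 14.1% and 14.7% over all genes. Bcl2, which restrains death, had 26.3 and 17.6 CPM in treated NIP and 13.1 and 6.93 CPM in treated NIL (1.14 ± 0.26, edgeR adjusted p = 0.00243). Bcl2l1 (BCL-XL), another restraining member, had 158 and 161 CPM in NIP and 117 and 82.3 CPM in NIL (0.69 ± 0.15, edgeR adjusted p = 0.00197), and Bcl2l2 (BCL-W) was higher by 0.69 ± 0.13. None of the libraries overlapped between the lines for these 3 genes. Bak1, which opens the outer mitochondrial membrane, had 11.6 and 21.0 CPM in treated NIP and 29.2 and 38.8 CPM in treated NIL (-1.10 ± 0.20, edgeR adjusted p = 0.000401). Bbc3 (PUMA), a CHOP and p53 target, had 41.0 and 82.9 CPM in NIP and 70.9 and 102 CPM in NIL (-0.53 ± 0.19, edgeR adjusted p = 0.0351), which overlap. Bcl2l11 (BIM) and Pmaip1 (NOXA), named after their values were seen, were lower by 0.62 ± 0.21 and 0.68 ± 0.23. In untreated cultures Bcl2 and Bcl2l1 differed by -0.20 and -0.10, below the threshold of the test, and neither passed the test of a line difference in the CPA response. Without the replicate block 2 members were called higher, Bcl2l1 and Bcl2l2, and 1 lower, Bak1. Without 1 library Bcl2l1 lost its call once (NIL replicate 2, adjusted p = 0.0613), and Bbc3, Bcl2l11 and Pmaip1 lost theirs in 2 or 3 of the 4 such fits, with adjusted p up to 0.244, 0.317 and 0.185.

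Calcium handling genes, which bear on the store that CPA empties, held calls in both directions. Of 24 tested, 4 were called higher and 6 lower in NIP (median -0.09), beside 19.3% higher and 18.2% lower over all genes. Atp2a2 (SERCA2), the main pump that CPA blocks, had 627 and 421 CPM in treated NIP and 588 and 451 CPM in treated NIL, which overlap. Slc8a2, a sodium-calcium exchanger of the plasma membrane, had 59.0 and 83.4 CPM in NIP and 30.8 and 24.8 CPM in NIL (1.34 ± 0.17, edgeR adjusted p = 1.39e-05). Atp2b4, a calcium pump of the plasma membrane, had 16.1 and 16.2 CPM in NIP and 4.82 and 5.65 CPM in NIL (1.64 ± 0.23, edgeR adjusted p = 4.01e-05). Ryr2, a release channel of the ER, was lower in NIP at 9.22 and 11.3 CPM, against 42.9 and 22.7 CPM in NIL (-1.68 ± 0.28, edgeR adjusted p = 0.000235). Calb1, a cytosolic calcium buffer, was lower at 5.20 and 1.21 CPM in NIP, against 29.3 and 11.04 CPM in NIL. The other lower calls were the ER release channels Ryr3, Itpr1, Itpr2 and Itpr3, and the other higher calls were Atp2c1, a pump of the Golgi, and Stim2, a sensor of ER calcium, all 6 named after their values were seen. With the block left out, 3 members were called higher and 3 lower.

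Neuronal RNA was higher in treated NIP in each of the 3 broad lists. Of 25 synaptic vesicle and release genes 20 were called higher and 0 lower (median 0.91); of 28 cytoskeleton genes 18 were higher and 1 lower (median 0.75); of 26 pan-neuronal genes 14 were higher and 3 lower (median 0.67). The background of higher calls was 19.3%. The synaptic genes summed to 6187 and 4330 CPM in treated NIP and 3285 and 1717 CPM in treated NIL, and the cytoskeleton genes to 30249 and 25733 CPM in NIP and 23057 and 11682 CPM in NIL. Neither sum overlapped between the lines, while the pan-neuronal sums, 7651 and 5660 CPM in NIP and 5749 and 2851 CPM in NIL, did. In each list NIL replicate 2, with the highest Rn45s share and the highest endoderm sum of the 4 libraries, was the lowest. Without that library 11 synaptic genes were called higher and 1 lower, 7 cytoskeleton genes higher and 1 lower, and 9 pan-neuronal genes higher and 4 lower, with medians of 0.59, 0.44 and 0.35 for these 3 lists. Without the replicate block 11 synaptic, 7 cytoskeleton and 8 pan-neuronal genes were called higher. The part of Rn45s and of the other cell types in these differences was not tested.

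**Figure D3:**
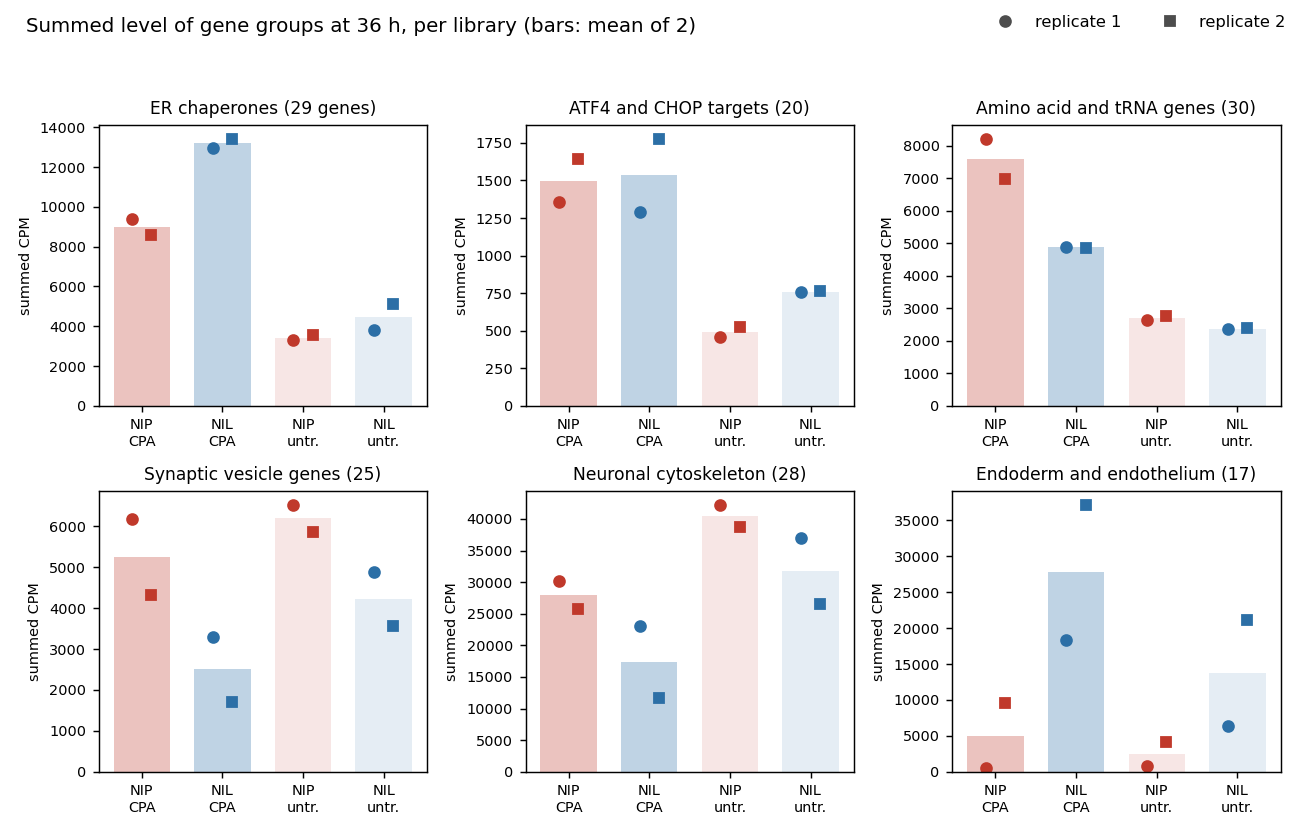
Summed CPM (vertical axis, from 0) of 6 gene groups in each library at 36 h, NIP in red and NIL in blue, darker bars after CPA and paler bars untreated, bars for the mean of 2 and points for single libraries. ER chaperones and endoderm genes sum higher in treated NIL, amino acid, synaptic and cytoskeleton genes sum higher in treated NIP, and the ATF4 and CHOP target sums overlap.

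Prph, the peripheral neuron filament peripherin, showed the largest cytoskeleton difference, with 600 and 784 CPM in treated NIP and 48.9 and 48.7 CPM in treated NIL (3.82 ± 0.20, edgeR adjusted p = 1.8e-09). Tubb3, the neuronal tubulin, had 1939 and 1646 CPM in NIP and 1134 and 478 CPM in NIL (1.21 ± 0.25, edgeR adjusted p = 0.00106), and Kif5a, an axonal motor in which mutations cause motor neuron disease, had 1551 and 1970 CPM in NIP and 785 and 360 CPM in NIL (1.69 ± 0.27, edgeR adjusted p = 0.000128). All 3 passed in each of the 13 alternative fits. Stmn2, a microtubule regulator of growing axons, had 1358 and 944 CPM in treated NIP and 831 and 455 CPM in treated NIL (0.86 ± 0.20, edgeR adjusted p = 0.00259), a call lost without NIL replicate 2 (adjusted p = 0.0678). The neurofilament chains Nefl and Nefh passed at 0.61 ± 0.21 and 0.90 ± 0.19 with overlapping libraries, both lost without NIP replicate 1 and without the block, and Nefl also without NIL replicate 2 (highest adjusted p 0.398 for Nefl and 0.0519 for Nefh), and Nefm, at 0.38 ± 0.18, did not (edgeR adjusted p = 0.101). Map2, the dendritic microtubule protein, had 456 and 276 CPM in NIP and 368 and 144 CPM in NIL, which overlap, and did not pass (0.58 ± 0.23, edgeR adjusted p = 0.0533). Ina, the filament internexin alpha, was the 1 cytoskeleton gene called lower, at 589 and 463 CPM in NIP, against 1157 and 703 CPM in NIL (-0.80 ± 0.20); it was named after its values were seen and lost its call without NIL replicate 1 (adjusted p = 0.0721).

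Snap25, of the vesicle fusion machinery, had 354 and 164 CPM in treated NIP and 111 and 49.4 CPM in treated NIL (1.69 ± 0.22, edgeR adjusted p = 1.62e-05). Syp, a vesicle membrane protein, had 446 and 370 CPM in NIP and 213 and 110 CPM in NIL (1.38 ± 0.18, edgeR adjusted p = 2.4e-05). Syn1, which tethers vesicles, had 228 and 215 CPM in NIP and 105 and 73.8 CPM in NIL (1.31 ± 0.17, edgeR adjusted p = 1.56e-05). In every one of these the NIP libraries lay above the NIL libraries, and the calls held in all 13 alternative fits, as did those of Syt11 and Vamp1. Elavl2, a neuronal RNA-binding protein, had 319 and 152 CPM in treated NIP and 99.1 and 42.6 CPM in treated NIL (1.74 ± 0.24, edgeR adjusted p = 3.48e-05). L1cam, an adhesion protein of axons, had 974 and 889 CPM in NIP and 426 and 203 CPM in NIL (1.61 ± 0.22, edgeR adjusted p = 3.34e-05), and Scg2, a granule protein, was higher by 2.56. Among the 3 pan-neuronal genes called lower was Nova1, a splicing regulator, with a log2 difference of -2.08; it was named after its values were seen.

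Ion channels and receptors differed in both directions. Of 28 channel genes 13 were called higher and 5 lower in NIP (median 0.45). Of 25 receptor genes 10 were higher and 9 lower (median 0.37), beside 19.3% higher and 18.2% lower over all genes. Scn9a, a voltage-gated sodium channel, had 511 and 326 CPM in treated NIP and 80.0 and 52.5 CPM in treated NIL (2.65 ± 0.22, edgeR adjusted p = 1.34e-07). Kcnq3, of the M-type potassium current, had 42.9 and 49.0 CPM in NIP and 2.35 and 2.18 CPM in NIL (4.29 ± 0.28, edgeR adjusted p = 1.87e-08). Cacna1g, a low-threshold calcium channel, was lower in NIP at 0.466 and 0.875 CPM, against 32.5 and 27.1 CPM in NIL (-5.55 ± 0.41, edgeR adjusted p = 1.09e-07). Among receptors Gabra2, a GABA receptor subunit, was higher by 3.28, while Grin2a, an NMDA receptor subunit, and Glra2, a glycine receptor subunit, were lower by 5.71 and 5.06. Grin2a had 0.339 and 0.269 CPM in treated NIP and 21.6 and 10.8 CPM in treated NIL. None of these libraries overlapped between the lines.

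Untreated NIP and NIL at 36 h, which share no library with the treated comparison, differed in 4256 of 14792 genes (28.8%), with 2084 (14.1%) higher and 2172 (14.7%) lower in NIP. Synaptic genes had 11 higher and 0 lower there (median 0.43), cytoskeleton genes 8 higher and 1 lower (0.41) and pan-neuronal genes 10 higher and 3 lower (0.29). Their sums in untreated cultures were 6535 and 5864 CPM in NIP and 4886 and 3559 CPM in NIL for synaptic genes, and 42277 and 38730 CPM in NIP and 36948 and 26545 CPM in NIL for cytoskeleton genes. Thus the neuronal sums were higher in NIP without CPA too, and the treated libraries of a line averaged below its untreated ones for both lists. Shared motor neuron genes had 4 higher and 8 lower in untreated NIP (median -0.35), against 7 higher and 6 lower after CPA (median 0.48). Slc18a3 was lower in untreated NIP at 196 and 167 CPM, against 328 and 270 CPM in untreated NIL, while the treated difference was 0.67 in the other direction; the difference between them, 1.39, was not called.

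The test of a line difference in the CPA response called 19 of 14792 genes (0.128%), 12 (0.0811%) with the more positive response in NIP and 7 (0.0473%) with the more negative one; 1368 had an unadjusted p below 0.05. None was called without the replicate block, and DESeq2 with the block called 145. Thbs1, a secreted matrix protein (thrombospondin 1), had 14.3 and 22.5 CPM in treated NIP and 53.0 and 63.7 CPM in treated NIL, beside 115 and 76.3 CPM in untreated NIP and 13.4 and 29.3 CPM in untreated NIL. So NIP lay below NIL with CPA and above it without, and the lines' responses ran in opposite directions. Their difference was -3.985 ± 0.52 (edgeR adjusted p = 0.0139). Atp2b4, the calcium pump above, had 46.9 and 65.9 CPM in untreated NIP and 5.14 and 4.09 CPM in untreated NIL, so the line difference of 3.55 without CPA was 1.64 with it (difference -1.92 ± 0.32, edgeR adjusted p = 0.0349). Casz1, a zinc finger factor, had 20.4 and 17.4 CPM in treated NIP and 81.5 and 74.7 CPM in treated NIL, beside 83.3 and 61.8 CPM in untreated NIP and 108 and 123 CPM in untreated NIL (-1.37 ± 0.25). Its level in treated NIP was the lowest of the 4 groups.

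In the other direction, Rasgrf2, an activator of Ras in neurons, had 54.7 and 21.0 CPM in treated NIP and 4.76 and 1.16 CPM in treated NIL, beside 12.5 and 10.3 CPM in untreated NIP and 18.3 and 7.98 CPM in untreated NIL (3.66 ± 0.50, edgeR adjusted p = 0.0139). The treated lines lie apart while the untreated ones overlap. Cpne4, a calcium-dependent membrane-binding protein, had 44.4 and 24.4 CPM in treated NIP and 9.45 and 4.24 CPM in treated NIL, beside 9.77 and 11.9 CPM in untreated NIP and 26.7 and 26.7 CPM in untreated NIL (3.53 ± 0.49, edgeR adjusted p = 0.0139). Here the order of the lines was reversed between treated and untreated cultures. Kcnc4, a fast potassium channel, had 95.8 and 82.7 CPM in treated NIP and 5.71 and 7.57 CPM in treated NIL, beside 27.5 and 24.7 CPM in untreated NIP and 8.03 and 8.07 CPM in untreated NIL (2.08 ± 0.36, edgeR adjusted p = 0.038). In NIL both treated libraries lay below both untreated ones, and in NIP both lay above. Of all list members 1, Atp2b4, passed this test, and of the 6 genes described here none passed in all 17 alternative fits. Thbs1 passed in 13 of them, Rasgrf2 in 12, Cpne4 in 11, Kcnc4 in 8, Atp2b4 in 7 and Casz1 in 6, with highest adjusted p-values without 1 library of 0.119 for Thbs1, Rasgrf2 and Cpne4, 0.129 for Atp2b4, 0.233 for Kcnc4 and 0.259 for Casz1.

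**Figure D4:**
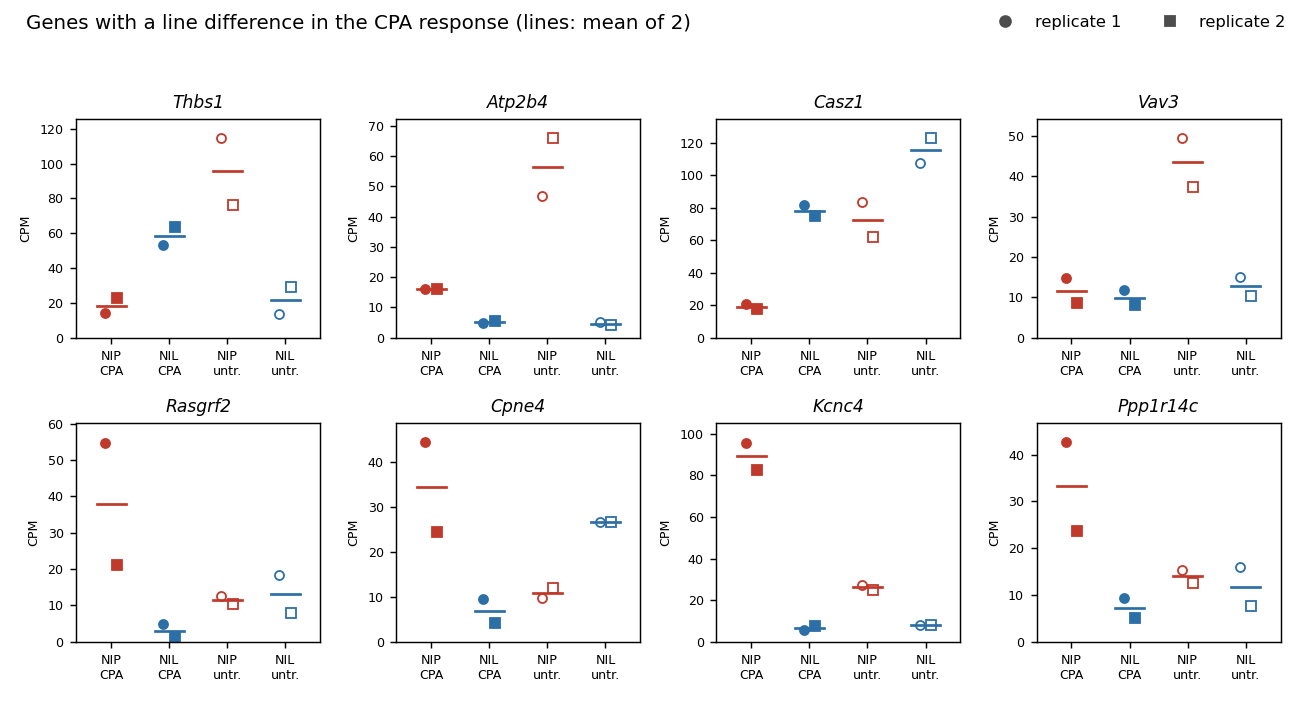
CPM (vertical axis, from 0) of 8 genes called for a line difference in the CPA response at 36 h, NIP in red and NIL in blue, filled symbols after CPA and open symbols untreated, lines for the mean of 2. In the upper row the NIP level falls furthest below its untreated level, and in the lower row treated NIP has the highest mean of the 4 groups.

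Set against the treated comparison at 12 h, the treated line difference at 36 h was larger or smaller in 9 genes (0.0608%), 7 (0.0473%) in the positive and 2 (0.0135%) in the negative direction; 1357 had an unadjusted p below 0.05, and without the replicate block 0 were called. Nrxn3, a presynaptic adhesion protein, had 61.7 and 30.9 CPM in NIP and 40.5 and 11.8 CPM in NIL after 36 h, beside 15.9 and 9.77 CPM in NIP and 41.4 and 25.7 CPM in NIL after 12 h (2.27 ± 0.31, edgeR adjusted p = 0.00822). NIP was thus below NIL at 12 h and overlapped it at 36 h. Syt9, a calcium sensor of vesicle release, had 101 and 93.5 CPM in NIP and 12.0 and 11.3 CPM in NIL after 36 h, beside 43.2 and 62.2 CPM in NIP and 19.1 and 21.7 CPM in NIL after 12 h (1.69 ± 0.23, edgeR adjusted p = 0.00822). Syt2, a related sensor, moved the other way, with 6.52 and 9.16 CPM in NIP and 8.501 and 7.70 CPM in NIL after 36 h, beside 12.8 and 20.2 CPM in NIP and 4.57 and 5.72 CPM in NIL after 12 h (-1.76 ± 0.31, edgeR adjusted p = 0.0439). Without 1 library the highest adjusted p was 0.0965 for Nrxn3 and Syt9 and 0.172 for Syt2, and of all list members Nrxn3 alone passed this test. Chaperone sums after 12 h were 16082 and 16325 CPM in NIP and 15774 and 22338 CPM in NIL, which overlap, so both lines held less at 36 h than at 12 h.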

How the data were processed

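Bulk RNA of 20 samples (10 groups of 2) was sequenced after ribosomal RNA depletion. The submitters' processing notes name HTSeq 0.6.1p1, Picard, TopHat2 2.1.1 and Bowtie2 2.3.2 as tools and GRCm38 and mm10 as builds; the order of use, the strand setting and the annotation release are not given in the sources used here. The deposited files hold raw counts per gene symbol: 24421 symbols and 5 summary lines, which were left out of library sizes and tests. Without a stated strand setting, overlapping and antisense genes cannot be told apart, and near-identical copies are uncertain.

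Counts were fitted with edgeR 4.0.16 (R 4.3.3): TMM scaling, filterByExpr (14792 genes kept) and the robust quasi-likelihood test over all 20 libraries, with 10 group means, a replicate block and 9 residual degrees of freedom; 2-sided p-values were adjusted by Benjamini-Hochberg over all tested genes, at 0.05. The contrasts of this fit were: treated lines, untreated lines, their difference, and the treated line difference at 36 h minus that at 12 h. The replicate number was kept as a block because same-numbered libraries deviated together (45 pairs of groups, r from 0.243 to 0.763, median 0.467; 0.467 for the treated pair; threshold 0.1); labels name no shared day or batch. The spread within each pair of replicates exceeded counting noise (chi-square per degree of freedom 30.1 to 316). The biological coefficient of variation was 15.7%. In simulated counts for the treated comparison (14672 genes), 73 of 100 genes changed by 1 log2 unit were called. Of those changed by 2, 97 of 100 were called, and 12 of 14472 unchanged genes were. The changed genes were drawn from those with a mean of at least 5 CPM over all libraries. The counts came from the fit's own means, replicate block and dispersions, so they cannot test the choice of block. No other gene was made to differ between the treated lines, whereas 37.5% of tested genes were called in the data. The shares called may therefore not hold for the data.

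The block, the gene lists, the motifs and the members named were chosen with earlier results of these data known; the block raises the number of calls. Named genes are, per comparison, the 10 largest treated differences in each direction (called, not overlapping, mean of at least 5 CPM in the higher line), the 4 per list with the smallest p, a panel of genes of known role, and the 6 largest in each direction for the differences between contrasts (at least 5 CPM in 1 group); others are said to be named after their values were seen. A gene with 3 or fewer reads in a line is given as a ratio of reads with an exact 95% interval, which covers counting error only. Alternatives were DESeq2 1.42.0, other scalings, no filter, other blocks, Rn45s left out, each library left out in turn, and, added after the data were seen, both libraries of high Rn45s share left out and a further promoter motif. Figures were drawn with matplotlib 3.10.9 (Python 3.11.15). Some genes of the lists are counted but not reported by name here.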

Additional observations from a re-analysis of the deposited data

Results flagged for a closer look

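The response to CPA at 36 h differed between the lines in 19 genes by the test of the difference itself, 12 of which are named here. The log2 differences were -3.985 for Thbs1, -2.10 for Hoxb4, -1.92 for Atp2b4, -1.68 for Pou3f2, -1.57 for Vav3 and -1.37 for Casz1. They were 3.66 for Rasgrf2, 3.53 for Cpne4, 2.08 for Kcnc4, 2.02 for Lhfp, 1.88 for Ppp1r14c and 1.85 for Nkd1. Hoxb4, a positional homeobox factor, had 8.29 and 4.58 CPM in treated NIP and 4.76 and 4.24 CPM in treated NIL, beside 16.9 and 13.0 CPM in untreated NIP and 2.46 and 2.43 CPM in untreated NIL. Its lines lay far apart without CPA and overlapped with it. Vav3, a guanine nucleotide exchange factor, had 14.7 and 8.55 CPM in treated NIP and 11.7 and 8.09 CPM in treated NIL, beside 49.6 and 37.4 CPM in untreated NIP and 15.1 and 10.3 CPM in untreated NIL. None of them was called without the replicate block, and their cause was not tested.

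In 7 named genes the treated line difference at 36 h differed from that at 12 h, by 2.27 for Nrxn3, 2.03 for Syndig1, 1.69 for Syt9, 1.63 for Lrrc8c, 1.55 for Camk4, 1.48 for Lrrc4 and -1.76 for Syt2. Camk4, a neuronal kinase activated by calcium, had 155 and 101 CPM in NIP and 24.2 and 16.3 CPM in NIL after 36 h, beside 69.4 and 61.0 CPM in NIP and 28.8 and 32.0 CPM in NIL after 12 h. These calls too were absent without the replicate block.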

How the results depend on the processing

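The treated comparison called 5554 genes, 2507 without the replicate block, 3553 with library totals in place of TMM, 3015 when only the 2 groups were fitted, 3724 without both libraries of high Rn45s share and 3798 to 4888 without 1 library. The untreated comparison called 4256, 1709 without the block, 2222 to 3215 without 1 library and 3189 with library totals, which moved the median of all genes to -0.32 and left 23.6% of calls higher in NIP. The CPA response difference called 19 genes, 0 without the block, 169 with a block for each line, 11 with DESeq2 size factors, 145 with DESeq2, 0 with only the groups compared, 6 without the high-Rn45s libraries and 0 to 84 without 1 library. The 36 h minus 12 h difference called 9, 0 without the block, 107 with a block for each line, 5 with library totals, 16 with no filter, 93 with DESeq2, 0 with only the groups compared, 1 without the high-Rn45s libraries and 0 to 139 without 1 library. The cause was not tested.

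Some uncalled genes changed sign. With a block for each line Herpud1 was 0.0071, Ddit3 0.11 and Rn45s 0.32; with library totals Herpud1 was 0.0061 and Ddit3 0.075. With DESeq2 size factors, and with DESeq2, Sel1l was -0.0051 and -0.0049, and Atp2a2 was -0.0603 in both. Atp2a2 was -0.028 with no filter, -0.019 with Rn45s left out and -0.016 with only the groups compared. Without the high-Rn45s libraries Herpud1 was 0.087, Ddit3 0.26, Trib3 0.15, Atp2a2 -0.093 and Rn45s 0.40. Without 1 library the ranges were -0.38 to 0.13 for Herpud1, -0.068 to 0.14 for Sel1l, -0.26 to 0.39 for Atf4, -0.43 to 0.31 for Ddit3, -0.74 to 0.19 for Trib3, -0.0196 to 0.52 for Atf3, -0.23 to 0.13 for Atp2a2, -1.85 to 0.56 for Rn45s and -0.58 to 0.14 for Dnajb9. Of the named values called with the block, 76 lost their call and 80 kept it, in the same direction, without the block; 23 others were not called in either fit. In the simulated counts of the treated comparison 73 of 100 changes of 1 log2 unit were called, in genes with a mean of at least 5 CPM. Smaller changes, and differences in as many genes as were called in the data, were not simulated.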

Other observations

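Cholesterol synthesis RNA was higher in treated NIP. Of 22 tested genes 18 were called higher and 1 lower (median 0.83), beside 19.3% higher and 18.2% lower over all genes. The sums were 4128 and 2810 CPM in treated NIP and 2320 and 1574 CPM in treated NIL, which do not overlap. Untreated cultures overlapped, with 3389 and 3420 CPM in NIP and 3434 and 2566 CPM in NIL. There 2 genes were higher and 1 lower, beside 14.1% and 14.7% over all genes. Tm7sf2, a sterol reductase, had 167 and 123 CPM in treated NIP and 45.9 and 29.9 CPM in treated NIL (1.93 ± 0.19, edgeR adjusted p = 1.04e-06). Its libraries did not overlap between the lines. Insig1, which holds the SREBP factors in the ER and was named after its values were seen, was the 1 gene lower in NIP, at 86.0 and 89.8 CPM against 144 and 175 CPM in NIL (-0.86 ± 0.24, edgeR adjusted p = 0.0108). Without the replicate block 9 were called higher and 1 lower, without NIP replicate 1 9 higher and 0 lower, and without NIL replicate 2 11 higher and 0 lower. The sterol element, searched as TCACNCCAC as a motif added later, was in 1 of 16 genes with a window (6.25%). That gene was Hmgcs1, and the share was 1.44% of all genes with a window.

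Heat shock and antioxidant genes gave no common direction. Over all genes 19.3% were called higher and 18.2% lower, which is the background for each list of this paragraph. Of 18 cytosolic heat shock genes 2 were called higher and 4 lower in treated NIP (median 0.04). Hspb8, a small heat shock protein in which mutations cause motor neuropathy, had 58.3 and 44.4 CPM in treated NIP and 3.43 and 5.14 CPM in treated NIL (3.64 ± 0.38, edgeR adjusted p = 4.34e-06), and was also higher in untreated NIP, at 19.7 and 23.2 CPM against 2.93 and 4.67 CPM in untreated NIL. Hspa1b, an inducible HSP70, had 0.804 and 1.08 CPM in treated NIP and 6.85 and 3.59 CPM in treated NIL (-2.57 ± 0.45, edgeR adjusted p = 0.000256). These 2 calls held in all 13 alternative fits. Of 16 NRF2 antioxidant genes 5 were higher and 3 lower (median 0.12), and without the replicate block 0 were called. Of 16 axon injury genes 3 were higher and 3 lower (median 0.25), among them Nts, a neuropeptide, at 15.8 and 5.32 CPM in treated NIP and 2.47 and 1.16 CPM in treated NIL. Respiratory chain genes (1 of 30 higher, 0 lower) and ribosomal protein genes (1 of 31 higher, 0 lower) had medians of 0.13 and -0.02.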
